A study of Homo sapiens with 4 samples.

Results

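The lncRNAs described here carry names that point to a developmental transcription factor gene as their neighbour. Names of the form lnc-GENE-number were taken when GENE began with FOX, SOX, HOX, TBX, PAX plus a digit, LHX, NKX, GATA, KLF, ZEB, SNAI, TWIST or the sine oculis homeobox stem (SIX3 and the like), and when the FPKM of the isoform rows, summed per gene, averaged at least 0.1 over all libraries. FPKM is the number of sequenced fragments scaled by transcript length and by the mapped total of the library. Of 660 such names, 138 reached this level, out of 46902 lncRNA genes in the table. The members were thus selected on their mean level over all libraries, so the levels are given as a description. The rule did not use the difference between the cell lines, but the members were chosen with earlier results of these data known. The name says which gene is near and nothing about what the lncRNA does. How far each lncRNA lies from that gene was not checked.

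The libraries came from MDA-MB-231, an established line from human breast carcinoma of the triple-negative kind, and from MDA-MB-231-P3, a subline obtained after 3 rounds of tail vein injection into mice, collection of the cells that had grown as lung tumours, and expansion in culture. Each line had 2 libraries, 4 in all, from cultured cells with no other treatment named in the labels. P3 is 1 selected subline, and whether its 2 libraries, or those of the parent, were grown apart is not in the labels. All p-values rest on the spread of these libraries, which may be technical only. Detection and scale differed by line. Values above 0 were found for 57477 and 55862 isoforms in the subline, against 52357 and 50931 in the parent. At least 0.1 FPKM was reached by 12376 and 11746 genes in the subline, against 10798 and 10222. The summed FPKM was lower in the subline, at 351135 and 372689 against 460282 and 500086. How far this difference shaped the comparisons of the lines below was not tested. With FPKM only, the read depth is unknown. The table holds lncRNAs only, so the protein-coding markers of the cells and the transcription factor mRNAs were not analysed here. Among lncRNA markers of other cells, DSCAM-AS1 of luminal breast cells was at or near 0 in every library and GATA3-AS1 was at most 0.0204 FPKM. The blood or immune list (3 of 4 genes in the table, LINC00861 near 0) summed to 0.399 and 1.07 FPKM in the parent and 1.13 and 0.883 FPKM in the subline. The mesenchymal list (2 of 3 genes) summed to 0.632 and 0.769 against 0.485 and 0.348 FPKM. The single lung marker in the table, NKX2-1-AS1, had 0.446 and 0.357 FPKM in the parent and 0.577 and 0.505 FPKM in the subline. Both of its subline values thus lay above both parental ones. The part of other cells in the results was not tested. In bulk samples, fewer cells of a type and less RNA per cell cannot be told apart.

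Forkhead (FOX), SOX, homeobox (HOX, PAX, LHX, NKX, SIX3), T-box (TBX), GATA and Krüppel-like (KLF) proteins are DNA-binding factors that set cell identity in the embryo. In breast epithelium, FOXA1 and GATA3 are known as factors of the luminal state. ZEB1, ZEB2, SNAI1, SNAI2 and the TWIST factors are known for driving the epithelial-to-mesenchymal transition. Genes for such factors often lie in wide stretches without other protein-coding genes, and many lncRNAs are transcribed around them, some of them antisense to the factor gene or from a shared promoter.

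The sources used here hold no sequence or coordinates for the 138 members, so positions are those of the neighbouring protein-coding gene (hg19). The promoters of 2 annotated lncRNAs of the same kind of locus are shown, HAGLR of the HOXD cluster, taken as the HOX context, and GATA2-AS1, because their values are described below. Each runs from 250 bases before to 50 after the start, 5′ to 3′ on the gene's strand, from RefSeq on GRCh38.p14. HAGLR lies at chr2:176188909-176189208 (minus strand, 1 of 4 starts listed) and GATA2-AS1 at chr3:128488953-128489252 (plus strand). Capitals mark CACCTG, the E-box letters that ZEB and SNAI factors recognise, and GGGCGG, the GC box of KLF and SP factors, on either strand.
HAGLR: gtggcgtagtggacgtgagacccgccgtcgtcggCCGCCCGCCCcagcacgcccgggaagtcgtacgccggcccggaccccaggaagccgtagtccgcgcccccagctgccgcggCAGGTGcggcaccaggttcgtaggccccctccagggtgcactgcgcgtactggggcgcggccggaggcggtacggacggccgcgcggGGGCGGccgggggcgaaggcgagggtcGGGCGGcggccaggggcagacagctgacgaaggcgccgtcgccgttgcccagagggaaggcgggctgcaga
GATA2-AS1: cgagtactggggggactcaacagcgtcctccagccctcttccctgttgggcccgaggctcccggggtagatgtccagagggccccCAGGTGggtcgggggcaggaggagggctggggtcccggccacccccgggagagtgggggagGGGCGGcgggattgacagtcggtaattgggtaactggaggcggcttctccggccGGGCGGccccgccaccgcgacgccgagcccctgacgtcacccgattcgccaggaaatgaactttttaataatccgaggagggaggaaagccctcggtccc
The HAGLR window held 1 CACCTG and 4 GGGCGG matches, 2 of which overlapped, and the GATA2-AS1 window held 1 and 2. Of 27305 promoters of this length, 20.6% held CACCTG and 44.6% held GGGCGG. Both strands were also searched for 3 other motifs, which neither window held. These were AGATAA for factors of the GATA family (found in 10.5% of promoters), GTAAACA for forkhead factors (3.41%) and AACAAT for SOX factors (10.3%). The GC content was 77.3% and 68.3%, against a median of 58.3% over all promoters. A match is a match of letters only.

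Most members were scarce. The median of their mean levels was 0.399 FPKM, against 0.511 FPKM for all 12720 lncRNA genes at or above the minimum. Of the 138 members, 6 averaged at least 10 FPKM, 39 at least 1 FPKM and 78 less than 0.5 FPKM. An average of at least 1 FPKM was held by 28.3% of members and by 32.9% of all 12720 genes. By family, 46 members had a FOX name, 21 KLF, 12 TBX, 11 SOX, 10 GATA, 9 PAX, 8 NKX, 7 ZEB, 6 HOX, 4 LHX, 3 of the sine oculis homeobox group and 1 TWIST. No SNAI name passed: 10 of the 14 were listed at 0 in all libraries. The share of names that passed was 20.9%, against 27.1% of all genes in the table, and ran from 9.09% for TWIST to 35.3% for TBX among families with members.

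The minimum was reached by 103 members in both lines, by 26 only in MDA-MB-231-P3 and by 9 only in MDA-MB-231. Members of the latter kinds had to differ in mean between the lines. Among all lncRNA genes, too, more reached 0.1 FPKM in each subline library than in either parental library. Just inside the minimum, lnc-ZEB2-15 averaged 0.104 FPKM from 1 parental library, lnc-FOXB1-11 0.107 FPKM from 1 parental library and lnc-SOX30-5 0.108 FPKM from all 4. Just outside, lnc-NKX2-5-2, lnc-FOXN3-7 and lnc-ZEB2-11 averaged 0.0997, 0.0969 and 0.0924 FPKM, each from a single library. In all, 40 members stood under 0.001 FPKM, called near 0 here, in at least 1 library, and 12 of these were above it in only 1 library. A value at 0 in such a table can be a failed estimate.

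The rule on names also took in 7 members whose neighbour is not a developmental transcription factor. They are lnc-GATAD1-4, lnc-GATAD1-6 and lnc-GATAD2A-6, next to genes of chromatin-associated proteins with a GATA-type zinc finger, lnc-TBXAS1-3 and lnc-TBXAS1-5, next to the gene of thromboxane synthase, lnc-TBXA2R-2, next to the thromboxane receptor gene, and lnc-FOXL2NB-5, next to a gene beside FOXL2. The other 131 members neighbour 69 factor genes.

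The neighbours differed in how many lncRNA names surrounded them. The 660 names belonged to 147 genes, of which 74 had at least 1 member. FOXD4L5 on chromosome 9 had 40 names and 13 members, and KLF6 on chromosome 10 had 20 names and 6 members. Next to FOXQ1, by contrast, 25 names gave 1 member, and none of the 14 names at KLF4 was a member. The distance to the next protein-coding genes, summed over both sides, had a median of 236 kb over the 147 genes and reached 3355 kb for ZEB2 (GENCODE release 44 on hg19). Across the 147 genes, Spearman's rho between this distance and the number of names was 0.52. Between the distance and the share of names that were members it was -0.03. A name is given by the gene near by, so a gene with more room around it can collect more names through the naming alone. The share of names that were members was no larger at genes with wider surroundings. It was 93 of 465 names (20.0%) at the genes at or above the median distance, and 45 of 195 (23.1%) at the others. The genes share the same 4 libraries, and neighbouring factor genes of a cluster share their surroundings.

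**Figure D1:**
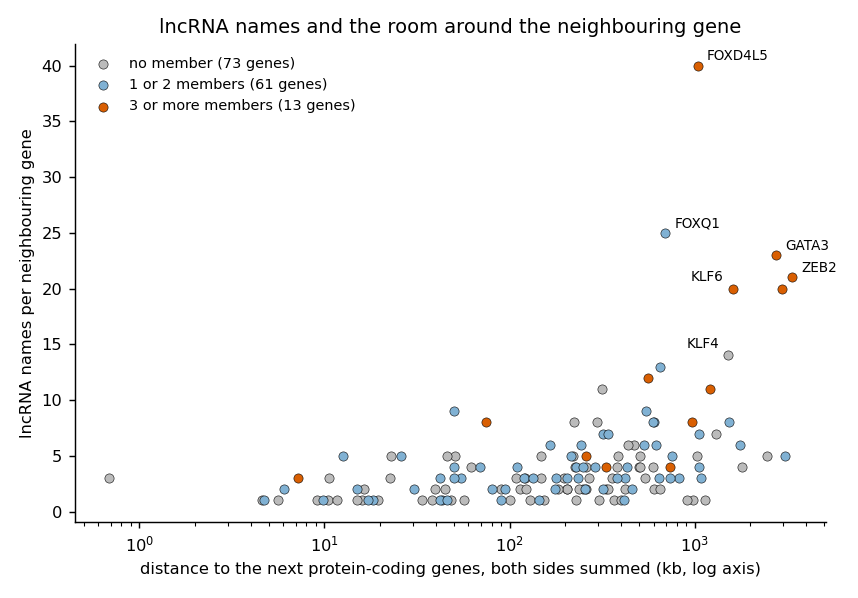
Number of lncRNA names per neighbouring gene (vertical axis) against the distance to the next protein-coding genes, both sides summed (kb, log axis), for 147 genes coloured by how many of their names were members. FOXD4L5, FOXQ1, GATA3, ZEB2 and KLF6, with 20 or more names each, lie to the right of the median distance of 236 kb.

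The subline was then set against its parent, to ask which of these lncRNAs differed between the lines. With 1 subline, growth in the lung cannot be told apart from injection, passage in mice and expansion in culture. No member passed the test. The 138 members were tested with all 12720 genes at or above the minimum, on log2(FPKM + 0.5) with limma, Benjamini-Hochberg adjusted over all of them, and 0 members were called, where 0% of all genes were called (percent called 0.0). The smallest limma adjusted p of a member was 0.356. Without adjustment, 13 members with higher and 4 with lower values in the subline had a p under 0.05, 9.42% and 2.90% of them, against 8.07% and 3.93% of all genes. Low values change less on this scale than in FPKM. The median difference of the members was 0.18, against 0.10 for all genes, and it was 0.07 without subline replicate 1. The median size of the difference, regardless of sign, was 0.45 for members and 0.40 for all genes. In MDA-MB-231 the 2 libraries themselves differed by a median of 0.354 per member, and in MDA-MB-231-P3 by 0.280. Over all genes tested these medians were 0.355 and 0.335.

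Both subline libraries lay above both parental libraries for 48 members (34.8%) and below them for 17 (12.3%), and the other 73 overlapped. Of all genes tested, 28.1% lay above and 17.2% below in this way. With 2 libraries against 2, an exact two-sided permutation test cannot go below p = 0.33, so these counts are a description. The split between directions was not the same under another scaling, and its cause was not tested. After quantile normalization, which moved the median difference of all genes from 0.10 to -0.03, 32 members lay above and 31 below, with 20.3% and 25.2% of all genes. Among the 103 members at or above the minimum in both lines, 32 lay above and 14 below (31.1% and 13.6%, against 24.6% and 17.9% of all such genes). Among the 39 members averaging at least 1 FPKM, 14 lay above and 8 below (35.9% and 20.5%, against 28.7% and 23.0%). The log2 difference was positive for 84 members (60.9%), against 57.3% of all genes. The members' shares were thus near those of lncRNA genes in general.

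**Figure D2:**
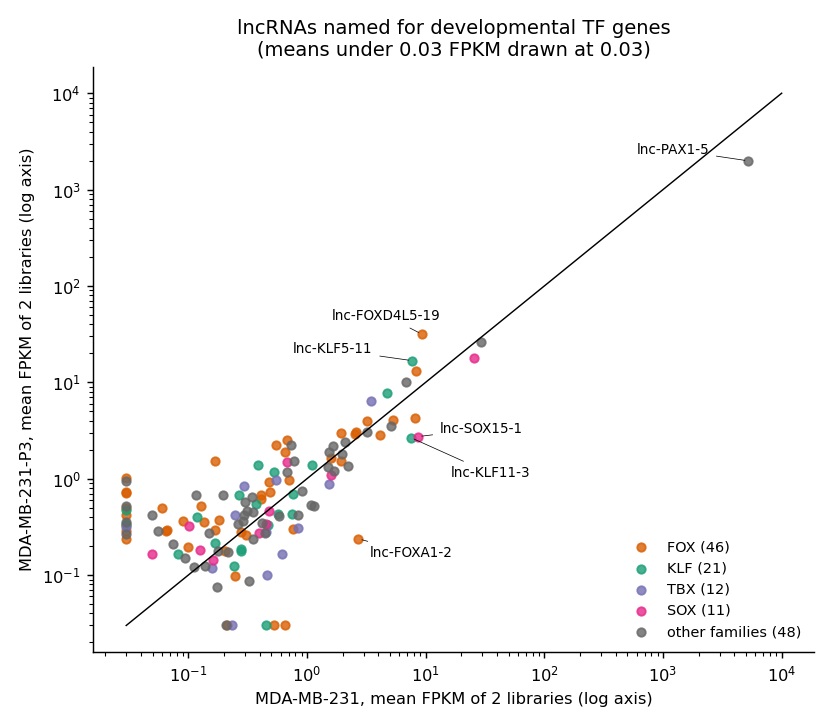
Mean FPKM of the 2 MDA-MB-231-P3 libraries against that of the 2 MDA-MB-231 libraries for the 138 members (log axes; means under 0.03 FPKM are drawn at 0.03; the line marks equal levels), coloured by family. Most members lie under 1 FPKM on both axes, lnc-PAX1-5 stands alone near the top right, and lnc-FOXA1-2 lies well below the line.

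The forkhead neighbours held the members of smallest p in either direction. FOXA1 encodes a pioneer factor that opens chromatin for hormone receptors (chromosome 14, 38058757 to 38065264, minus strand). The lncRNA lnc-FOXA1-2 had 2.28 and 3.15 FPKM in MDA-MB-231 and 0.276 and 0.200 FPKM in MDA-MB-231-P3. Both subline values lay far under both parental ones, and the mean was 11.4-fold lower, 0.238 ± 0.0534 against 2.72 ± 0.610 FPKM (SD, n = 2 each). The difference was -2.11 on the log2 scale (SE 0.31, limma adjusted p = 0.356), which did not pass, and was -2.31 to -1.92 when each library was left out. Its neighbour lnc-FOXA1-4 was above 0 in 1 parental library only, at 1.07 FPKM.

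In the other direction, lnc-FOXD4L5-19 was the most abundant forkhead neighbour. It had 8.75 and 9.87 FPKM in the parent and 29.6 and 33.6 FPKM in the subline, 3.39-fold more, with little spread within either line. The difference was 1.71 (SE 0.26, limma adjusted p = 0.356). FOXD4L3, FOXD4L5 and FOXD4L6 are members of a family of near-identical forkhead gene copies in duplicated sequence of chromosome 9, so reads of their neighbours can be split between copies and the values are uncertain. These genes gave 19 members, between 0.142 and 20.5 FPKM on average. Both subline libraries lay above both parental ones for 11, below them for 2, and 6 overlapped. Of all genes, 28.1% lay above and 17.2% below. Among those above, lnc-FOXD4L6-1, lnc-FOXD4L6-2, lnc-FOXD4L5-9, lnc-FOXD4L5-22 and lnc-FOXD4L5-24 averaged under 0.1 FPKM in the parent. They passed the minimum only through the subline, so their means had to be higher there. Over all members this split was 32 above and 31 below after quantile normalization. The 2 that lay below were lnc-FOXD4L5-21, at 5.46 and 5.08 against 4.03 and 4.19 FPKM, and lnc-FOXD4L5-25, at 4.37 and 3.82 against 3.45 and 2.23 FPKM. Without these 19 members, 37 of the other 119 lay above and 15 below.

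Several of the copies' neighbours were low in the parent. For lnc-FOXD4L6-2 both parental libraries were listed at 0, so it passed the minimum only through the subline. There it had 0.708 and 0.730 FPKM, with a limma adjusted p of 0.357. The lncRNA lnc-FOXD4L6-22 had 0.931 and 0.166 FPKM in the parent and 2.09 and 2.37 FPKM in the subline. For lnc-FOXD4L5-12 the values were 0.230 and 1.07 against 1.97 and 1.84 FPKM. The parental libraries of both differed from each other several-fold, while the subline libraries lay close together.

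FOXQ1 and FOXP1 each had a single member. FOXQ1 encodes a forkhead factor linked to the epithelial-to-mesenchymal transition, and lnc-FOXQ1-1 had 0.301 and 1.06 FPKM in the parent and 1.89 and 3.14 FPKM in the subline (log2 difference 1.40, SE 0.47, limma adjusted p = 0.387). The lncRNA lnc-FOXP1-4 had 0.0428 FPKM and near 0 in the parent and 0.910 and 0.556 FPKM in the subline. Its limma adjusted p was 0.357, and it passed the minimum only through the subline. In both lncRNAs, every subline value exceeded every parental one, at levels at which the 2 libraries of a line can differ several-fold. In lnc-FOXN3-2, next to the gene of a forkhead repressor, the whole difference came from 1 parental library, at 1.29 FPKM against 0.00167 FPKM in the other and near 0 in the subline.

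**Figure D3:**
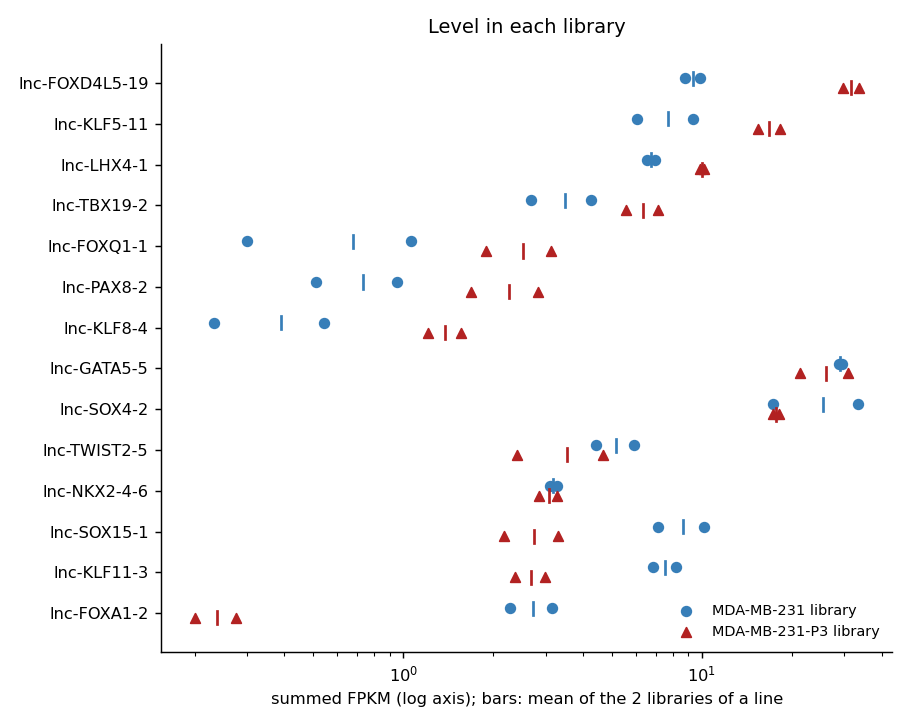
Summed FPKM (log axis) in each library for 14 members, circles for MDA-MB-231 and triangles for MDA-MB-231-P3, with a bar at the mean of each line. From lnc-FOXD4L5-19 to lnc-KLF8-4 the triangles lie right of the circles, from lnc-GATA5-5 to lnc-NKX2-4-6 the lines overlap, and from lnc-SOX15-1 to lnc-FOXA1-2 the triangles lie left.

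KLF5 encodes a Krüppel-like factor of proliferating epithelium (chromosome 13, 73629114 to 73651679, plus strand). Its neighbour lnc-KLF5-11, the most abundant of the KLF members, had 6.05 and 9.34 FPKM in the parent and 18.2 and 15.4 FPKM in the subline. The subline mean was 2.18-fold higher (log2 difference 1.10, SE 0.32, limma adjusted p = 0.373). KLF11 encodes a repressor induced by TGF-beta (chromosome 2, 10182976 to 10194963, plus strand), and lnc-KLF11-3 went the other way. It had 8.16 and 6.85 FPKM in the parent and 2.97 and 2.36 FPKM in the subline, 2.81-fold less (log2 difference -1.34, SE 0.28, limma adjusted p = 0.357). The lines did not overlap in either lncRNA.

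The neighbours of KLF8 differed in how well the libraries of a line held together. For lnc-KLF8-4 the values were 0.233 and 0.544 FPKM in the parent and 1.56 and 1.21 FPKM in the subline (log2 difference 1.10, SE 0.34, limma adjusted p = 0.378). For lnc-KLF8-3 they were 2.38 and 7.15 FPKM in the parent and 11.1 and 4.36 FPKM in the subline, so that the lines overlapped. KLF6, a factor with tumour-suppressor roles, had 6 members, 1 above, 1 below and 4 overlapping. The highest was lnc-KLF6-12, with 0.520 and 0.526 FPKM in the parent and 1.12 and 1.21 FPKM in the subline. Of all 21 KLF members, 5 lay above, 3 below and 13 overlapped, where 28.1% and 17.2% of all genes lay above and below.

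Among SOX neighbours, lnc-SOX4-2 was the most abundant. SOX4 is a progenitor factor often raised in carcinomas, and lnc-SOX4-2 had 17.3 and 33.4 FPKM in the parent and 17.3 and 18.1 FPKM in the subline. Only parental replicate 2 stood apart, and the lines overlapped. SOX15 lies in a gene-dense stretch of chromosome 17 (7491496 to 7493412, minus strand), where the next protein-coding genes are 7.20 kb away in sum. Its neighbour lnc-SOX15-1 had 10.2 and 7.11 FPKM in the parent and 3.30 and 2.18 FPKM in the subline, 3.16-fold less (log2 difference -1.50, SE 0.35, limma adjusted p = 0.357). The lncRNA lnc-SOX30-3 had 0.693 and 0.665 FPKM in the parent and 1.57 and 1.44 FPKM in the subline. Of 11 SOX members, 2 lay above, 1 below and 8 overlapped, where 28.1% and 17.2% of all genes lay above and below.

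The PAX neighbours contained the outlier in level. PAX1 encodes a factor of the embryonic axial skeleton (chromosome 20, 21686297 to 21699119, plus strand). Its neighbour lnc-PAX1-5, a single isoform row, reached 7317 and 3169 FPKM in the parental libraries, against 2372 and 1600 FPKM in the subline. It held between 87.3% and 97.5% of the summed FPKM of all members in each library, and the next member was at most 33.6 FPKM in any library. The lines did not overlap, but the parental libraries were far apart. The log2 difference was -1.31 (SE 0.53, limma adjusted p = 0.433) and ran from -1.91 to -0.70 when each library was left out. The other 137 members together summed to 189 and 217 FPKM in the parent and to 241 and 233 FPKM in the subline. PAX8 encodes a factor of thyroid and kidney, and lnc-PAX8-2 had 0.955 and 0.509 FPKM in the parent and 2.83 and 1.69 FPKM in the subline (log2 difference 1.16, SE 0.38, limma adjusted p = 0.387). Of 9 PAX members, 1 lay above, 2 below and 6 overlapped, where 28.1% and 17.2% of all genes lay above and below.

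Other homeobox neighbours were mostly low. LHX4 encodes a factor of pituitary and motor neuron development (chromosome 1, 180199399 to 180248119, plus strand), and lnc-LHX4-1 had 6.56 and 6.98 FPKM in the parent and 10.2 and 9.85 FPKM in the subline (log2 difference 0.53, SE 0.25, limma adjusted p = 0.487). The libraries of each line lay close together and the lines were separated. The highest NKX neighbour, lnc-NKX2-4-6, had 3.26 and 3.10 against 2.86 and 3.28 FPKM and overlapped. Of the 8 NKX members 4 lay above and none below, where 28.1% and 17.2% of all genes did, 3 of the 4 next to NKX6-1, a factor of pancreatic and neural progenitors. There lnc-NKX6-1-8 had 0.0416 and 0.0571 FPKM in the parent and 0.486 and 0.361 FPKM in the subline. For lnc-NKX6-1-5 the values were 0.0313 and 0.0796 against 0.364 and 0.212 FPKM, and for lnc-NKX6-1-2 1.90 and 1.41 against 2.28 and 2.09 FPKM. With parental means of 0.0494 and 0.0555 FPKM, lnc-NKX6-1-8 and lnc-NKX6-1-5 passed the minimum only through the subline. Their means thus had to be higher there.

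HOX neighbours passed the minimum at low levels only. The 6 members averaged between 0.117 and 0.496 FPKM. The highest, lnc-HOXB4-1, had 0.363 and 0.323 FPKM in the parent and 0.696 and 0.600 FPKM in the subline, with a limma adjusted p of 0.573. The lncRNA lnc-HOXC4-2 had 0.592 and 0.567 against 0.299 and 0.513 FPKM. HAGLR, the HOXD antisense lncRNA whose promoter is printed above, stood higher than any of them, at 2.94 and 3.99 FPKM in MDA-MB-231 and 2.46 and 3.12 FPKM in the subline, and its lines overlapped. Its sum was spread over 49 isoform rows. The largest on average, isoform 7, held 41.0% and 15.9% of it in the parent and 22.4% and 25.6% in the subline. In parental replicate 2 isoform 38 held more, 18.7%, and in subline replicate 1 isoform 33 did, 28.2%. Of 16 HOX-cluster lncRNAs with names of their own, only HAGLR and its neighbour HAGLROS, at 0.152 to 0.360 FPKM, passed the minimum, and 6 were listed at 0 in all libraries. HOTAIR, a HOXC lncRNA linked to metastasis, was listed above 0 in 1 subline library only, at 0.0823 FPKM.

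T-box and GATA neighbours showed no common direction. For lnc-TBX19-2, next to a gene of a pituitary factor, the values were 4.26 and 2.68 FPKM in the parent and 7.13 and 5.56 FPKM in the subline (log2 difference 0.81, SE 0.34, limma adjusted p = 0.447). For lnc-TBX1-3 they were 0.590 and 1.10 against 0.269 and 0.344 FPKM. Of 12 members with a TBX name, 4 lay above, 3 below and 5 overlapped, where 28.1% and 17.2% of all genes lay above and below. These include the neighbours of thromboxane genes, with lnc-TBXAS1-5 above, lnc-TBXAS1-3 below and lnc-TBXA2R-2 overlapping. The first of them passed the minimum only through the subline. The GATA member of highest level, lnc-GATA5-5, had 28.8 and 29.4 FPKM in the parent and 21.2 and 30.9 FPKM in the subline and overlapped. At GATA3, the luminal factor, lnc-GATA3-26 had 1.48 and 1.54 against 1.49 and 1.13 FPKM, and 3 other neighbours averaged at most 0.386 FPKM. Of 10 GATA members 5 lay above and none below, where 28.1% and 17.2% of all genes did, and 2 of the 5 were the GATAD1 neighbours. Another, lnc-GATA3-7, averaged 0.0223 FPKM in the parent and passed the minimum only through the subline. The log2 differences of the 10 GATA members were positive for 5 and negative for 5, with a median of 0.05.

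Next to the genes known for the epithelial-to-mesenchymal transition, 7 of 33 ZEB names, 1 of 11 TWIST names and 0 of 14 SNAI names were members. The ZEB members averaged between 0.104 and 0.923 FPKM. At ZEB1, lnc-ZEB1-10 had 0.769 and 0.595 FPKM in the parent and 1.34 and 0.994 FPKM in the subline, and lnc-ZEB1-12 had 0.688 and 1.00 against 0.261 and 0.576 FPKM, so that the 2 differed in direction. The lncRNAs lnc-ZEB1-8 and lnc-ZEB2-9 were listed at 0 in both parental libraries, and had 0.279 and 1.61 FPKM and 0.480 and 0.561 FPKM in the subline. Both passed the minimum only through the subline. The limma adjusted p of lnc-ZEB2-9 was 0.357. The only TWIST member, lnc-TWIST2-5, stood higher, averaging 4.35 FPKM. It had 4.40 and 5.90 against 4.68 and 2.40 FPKM and overlapped.

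**Figure D4:**
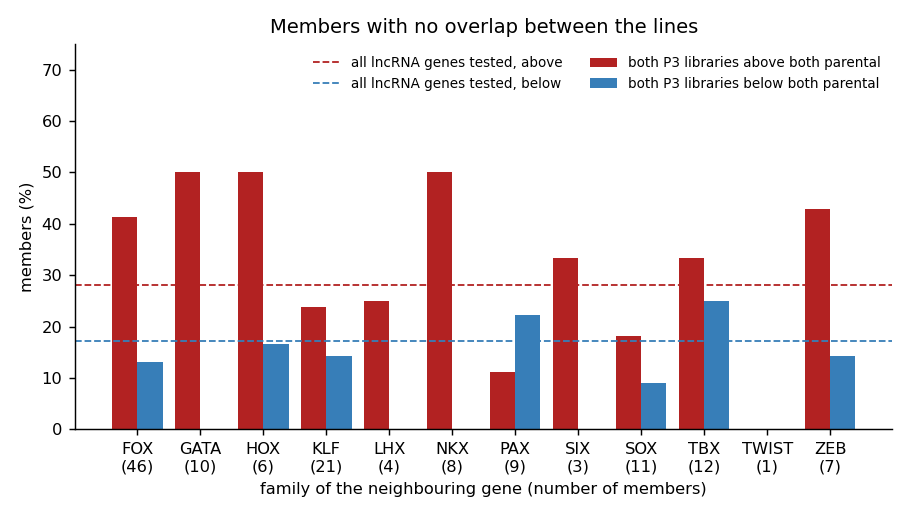
Share of members (%) whose 2 MDA-MB-231-P3 libraries both lay above (red) or below (blue) both MDA-MB-231 libraries, by family of the neighbouring gene, with the number of members in brackets; dashed lines give the shares over all genes tested, 28.1% above and 17.2% below. Families of 10 or fewer members have few to count, such as 5 of 10 GATA members above. The FOX members stand at 19 of 46 above and 6 of 46 below. Some of the members above passed the minimum only through the subline. The FOX, GATA and TBX bars include members whose neighbour is no developmental transcription factor. After quantile normalization the split over all members was 32 above and 31 below, and the split by family after it is not given here.

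Annotated lncRNAs named for the same kinds of gene were tested in the same fit. Of 52 such names, HAGLR included, 44 had a row, 15 passed the minimum and limma called 0 of these (smallest adjusted p = 0.393, 1 with an unadjusted p under 0.05). Of the 15, 3 lay above, 3 below and 9 overlapped, where 28.1% and 17.2% of all genes lay above and below. Their median log2 difference was -0.10, against 0.18 for the members, and this difference was not tested. The 3 below were the more abundant. GATA2-AS1, beside the gene of a blood and endothelial factor, had 3.17 and 4.45 FPKM in the parent and 2.01 and 1.61 FPKM in the subline, a difference of -0.89 (SE 0.31). FOXD3-AS1, beside a neural crest factor gene, had 11.9 and 11.7 against 7.54 and 7.88 FPKM. FOXN3-AS1 had 1.88 and 2.45 against 1.20 and 1.30 FPKM. Above were NKX2-1-AS1, KLF3-AS1 and KLF7-IT1, each at most 0.577 FPKM in every library.

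The others overlapped. PAX8-AS1 was the most abundant, with 21.7 and 19.7 FPKM in MDA-MB-231 and 15.5 and 20.2 FPKM in the subline. ZEB1-AS1, which shares a promoter region with ZEB1, had 5.46 and 5.13 against 4.20 and 5.72 FPKM. FOXD2-AS1, a lncRNA raised in several cancers, had 0.894 and 1.69 against 1.18 and 0.808 FPKM. SNAI3-AS1 had 1.27 and 4.52 against 2.46 and 2.32 FPKM. FOXP4-AS1 had 3.87 and 0.699 FPKM in the parent and 3.97 and 1.19 FPKM in the subline, so that it was high in replicate 1 of both lines. SOX2-OT and LHX1-DT averaged 0.203 and 0.133 FPKM.

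In 3 members, values above 0.1 FPKM stood in both replicates of 1 number and values under 0.001 FPKM in both of the other. The lncRNA lnc-FOXL2NB-5 had 3.22 FPKM in parental replicate 1 and 3.25 FPKM in subline replicate 1 and was near 0 in replicate 2 of both lines. In lnc-TBX2-5 replicate 1 had 0.591 and 1.67 FPKM and replicate 2 was at 0. In lnc-TBX1-2 replicate 2 had 1.23 and 0.33 FPKM and replicate 1 was at 0. Over all genes tested, 177 were above 0.1 FPKM only in replicate 1 of both lines and 92 only in replicate 2, with the others near 0. The crosswise pattern held for 92 genes in parental replicate 1 with subline replicate 2, 2 of them members, and for 111 in parental replicate 2 with subline replicate 1, 1 of them a member.

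The sums were also looked at by isoform row. Of the 138 members, 76 had 1 row and 62 had more, up to 44 in lnc-KLF7-1. Among the 22 with more than 1 row and a mean of at least 1 FPKM, the same isoform was the largest in all 4 libraries for 12. For the other 10 the largest isoform also differed between libraries of a line, and for 0 of the 22 did it differ between the lines while being shared within each. In lnc-KLF11-3, isoform 1 had 4.20 and 1.65 FPKM in the parent and 0.334 and 2.34 FPKM in the subline, and isoform 2 had 3.96 and 5.21 against 2.64 and 0.0205 FPKM. The largest isoform thus changed between the subline libraries, while the sum held at 2.97 and 2.36 FPKM.

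In lnc-LHX4-1 the isoforms were steadier: isoform 1 had 2.52 and 2.55 FPKM in the parent and 4.99 and 4.92 FPKM in the subline, and isoform 2 had 4.04 and 4.43 against 5.19 and 4.92 FPKM. The higher sum in the subline came mostly from isoform 1. In lnc-KLF5-11, isoform 2 had 5.82 and 6.18 FPKM in the parent and 13.4 and 10.3 FPKM in the subline and was the largest in every library. In lnc-SOX15-1, isoform 1 had 1.98 and 2.73 FPKM in the parent and 0.0190 and 0.0573 FPKM in the subline, and isoform 2 had 5.86 and 3.16 against 2.55 and 2.12 FPKM. Isoform 4 had 2.36 and 1.21 against 0.737 FPKM and 0. Each of the 3 isoforms was lower in both subline libraries than in both parental ones.

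**Figure D5:**
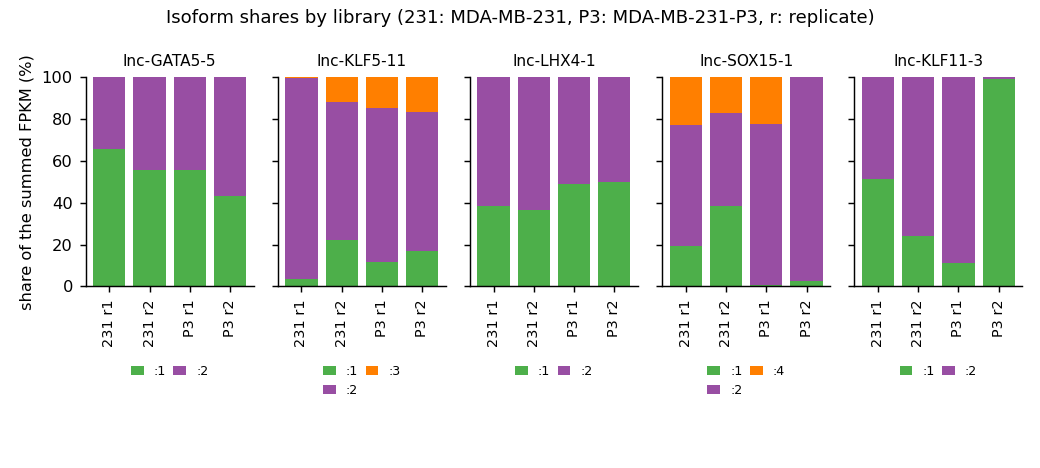
Share of the summed FPKM (%) held by each isoform row in each library for 5 members with more than 1 row. In lnc-LHX4-1 the shares lie close within a line, whereas in lnc-KLF11-3 isoform 2 goes from 88.7% in subline replicate 1 to under 1% in replicate 2.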

How the data were processed

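RNA was sequenced from 2 libraries of MDA-MB-231 and 2 of MDA-MB-231-P3, with strand kept and mRNA fractions as input. The table the authors deposited gives FPKM for each lncRNA isoform, from reads that the authors aligned with HISAT2 (hg19), per the labels' protocols. StringTie is named in the submitters' processing notes. Tool versions: not given in the sources used here, like the lncRNA annotation. The files of the single libraries held the same values as the series table in all 104786 rows. Depth was unknown, so no counting interval is given.

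Isoform rows were summed per gene name. The 12720 genes with a mean of at least 0.1 FPKM entered limma 3.58.1 as log2(FPKM + 0.5) (R 4.3.3, empirical Bayes with trend, two-sided, Benjamini-Hochberg adjusted, threshold 0.05). The fit was also run on simulated data with known changes, and the outcome of that run is not given here. Fold changes are ratios of mean FPKM. Neighbour genes and distances came from GENCODE release 44 on hg19.

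The members and lists were chosen with earlier results of these data known. Named members were the 8 of highest level, the highest of each family, the 6 per direction of smallest p, the 6 per direction of largest difference among non-overlapping members averaging at least 0.5 FPKM, those whose neighbour is no developmental transcription factor, and those at the minimum, plus annotated lncRNAs past the minimum. Some members that this rule names are counted but not reported here. Other members named by value, and HOTAIR, were chosen after their values were seen. Alternatives were other pseudocounts, minimums, scalings, isoform rows, a replicate block and leaving out each library.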

Additional observations from a re-analysis of the deposited data

How the results depend on the processing

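No member was called under any alternative run, with limma adjusted p values of the smallest member between 0.0692 and 0.475. Over all genes, 4 were called with a minimum of 0.5 FPKM (6444 tested) and 4 with a minimum of 1 FPKM (4191 tested), none of them a member, and 0 under every other alternative. The median log2 difference of the members was 0.37 with a pseudocount of 0.1, 0.046 after quantile normalization and 0.072 after centring, and 0.066 to 0.19 with 1 library left out. Members with both subline libraries above both parental ones numbered 21 and 14 with minimums of 0.5 and 1 FPKM, where 60 and 39 members are left, and those below numbered 11 and 8. After quantile normalization 31 lay below. Of 42 single lncRNAs followed, 11 changed the sign of their difference in at least 1 alternative and 31 did not. Among the 31, the difference of lnc-FOXB1-11 and lnc-ZEB2-15 went to 0 without the only library in which each was above 0.

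HAGLROS went to -0.15 after quantile normalization and -0.10 after centring, LHX1-DT to -0.048 after quantile normalization, and with single isoform rows ZEB1-AS1 went to 0.032 and SNAI3-AS1 to 0.084. With 1 library left out, the log2 difference ran from -0.45 to 0.086 for lnc-GATA5-5, -0.90 to 0.029 for lnc-SOX4-2, -0.025 to 1.39 for lnc-KLF8-3 and -0.13 to 0.038 for lnc-NKX2-4-6. It ran from -0.19 to 0.21 for HAGLROS, -0.56 to 0.088 for FOXD2-AS1, -0.67 to 1.20 for FOXP4-AS1, -0.70 to 0.17 for SOX2-OT, -0.017 to 0.28 for LHX1-DT, -0.30 to 0.10 for ZEB1-AS1 and -0.80 to 0.71 for SNAI3-AS1. The cause was not tested. A line left with 1 library is assumed to vary like the other. With the replicate block, 0 members and 0 of all genes were called, and the smallest limma adjusted p of a member was 0.475. The deviations of replicate 1 from the line means had a correlation of 0.067 between the lines over 12720 genes. With 2 pairs, this and the labels do not show whether a number marks a shared batch. Unknown depth limits what the low values can show.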
